A study of Mus musculus with 4 samples.

Results

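The enzymes of the kynurenine pathway, the main route of tryptophan breakdown, were followed in whole brain of mice that had received LPS or PBS. The group holds 10 genes, taken for their function: Ido1, Ido2, Tdo2, Afmid, Kmo, Kynu, Haao, Qprt, Kyat1 and Kyat3, of 23462 genes that the array probes could be assigned to. They were found through the RefSeq accession of each probe, which gave 14 probes, with at least 1 for each gene. Of these probes, 10 were well above background on all 4 arrays and 3 on none. Of the 10 genes, 9 entered the linear model described here, of 17131 genes in all, and Kynu did not.

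Total RNA of whole brain was hybridised to single-colour (Cy3) Agilent arrays, 1 array for each of 4 groups: Nav1.8CreROSA26DTA mice given LPS, Nav1.8CreROSA26DTA mice given PBS, wild-type mice given LPS and wild-type mice given PBS. LPS, a cell wall component of Gram-negative bacteria that serves as a model of sepsis, was given intraperitoneally at 20 mg/kg, with collection of the brain after 12 hours. The labels give this dose and time for LPS, and give no age, sex or strain. In Nav1.8CreROSA26DTA mice, Cre under control of the Nav1.8 sodium channel gene switches on diphtheria toxin A from the ROSA26 locus, which kills the sensory neurons of that lineage, chiefly nociceptors. These neurons have their cell bodies in peripheral ganglia, which were not measured here. Whether an array held 1 mouse or several is not stated, so an effect of a group and a trait of its animals cannot be told apart. All comparisons of 2 arrays therefore lack a replicate. The p-values given here rest on 1 residual degree of freedom, pooled with other genes, so variation from animal to animal is poorly measured. That variation also cannot be told apart from a difference of the LPS responses between the genotypes.

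In the kynurenine pathway, Ido1, Ido2 or Tdo2 opens the indole ring of tryptophan, and Afmid removes the formyl group to give kynurenine. Kynurenine is then divided between branches: the aminotransferases Kyat1 and Kyat3 turn it into kynurenic acid, an antagonist of glutamate receptors, while Kmo, Kynu and Haao lead to quinolinic acid, an agonist of NMDA receptors, which Qprt feeds into NAD synthesis. Ido1 is known as a gene induced by interferon-gamma, Tdo2 as a liver enzyme induced by glucocorticoids, and in brain the quinolinic acid branch is attributed mainly to microglia and macrophages and the kynurenic acid branch mainly to astrocytes.

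The arrays shared 1 slide and 1 scan. The agents occupied separate rows of the slide and the genotypes separate columns, so slide position cannot be told apart from agent and genotype. The share of spots well above background was 66.5% to 69.5% per array, and 0 spots were saturated. Signals are given relative to the 75th percentile of their own array, as a percent of it, and 1 probe of a gene is not ranked against a probe of another gene. Neuronal and astrocyte markers (Snap25, Rbfox3, Slc1a2, Gfap) were well above background on all 4 arrays. The gene of Nav1.8, Scn10a, differed between Nav1.8CreROSA26DTA and wild-type brain by 0.07 ± 0.19 on the log2 scale (adjusted p = 0.943, limma), which checks nothing about the loss of ganglion neurons. Over all genes, 963 rose and 777 fell with LPS at an adjusted p below 0.05, while centring each array on its median gave 963 and 1292, and cyclic loess gave 973 and 463.

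LPS against PBS, averaged over the genotypes, showed 2 of the 9 enzymes higher and 0 lower. Ido1, which catalyses the first step, rose 2.10-fold, and Kyat3, which makes kynurenic acid, rose 1.8-fold. The other 7 (Ido2, Tdo2, Afmid, Kmo, Haao, Qprt and Kyat1) did not pass the test. Over all genes tested, 5.62% rose and 4.54% fell. The median difference over the 9 enzymes was 0.21 on the log2 scale, against -0.03 over all genes. Before adjustment, limma's p-values were 0.000456 for Ido1, 0.00641 for Ido2 and 7.35e-05 for Kyat3, and the next lowest was 0.0639 for Kyat1. Both LPS arrays lay above both PBS arrays for 4 of the 9 (Ido1, Ido2, Kyat1 and Kyat3), where 21.7% of all genes did so, and both lay below for 0 of the 9, where 29.4% of all genes did so. The test was limma's moderated test over all 4 arrays, with genotype as a second term and Benjamini-Hochberg adjustment, and ± is its standard error. Whole brain was measured, so a change in the number of cells of a type and a change in RNA per cell cannot be told apart.

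**Figure D1:**
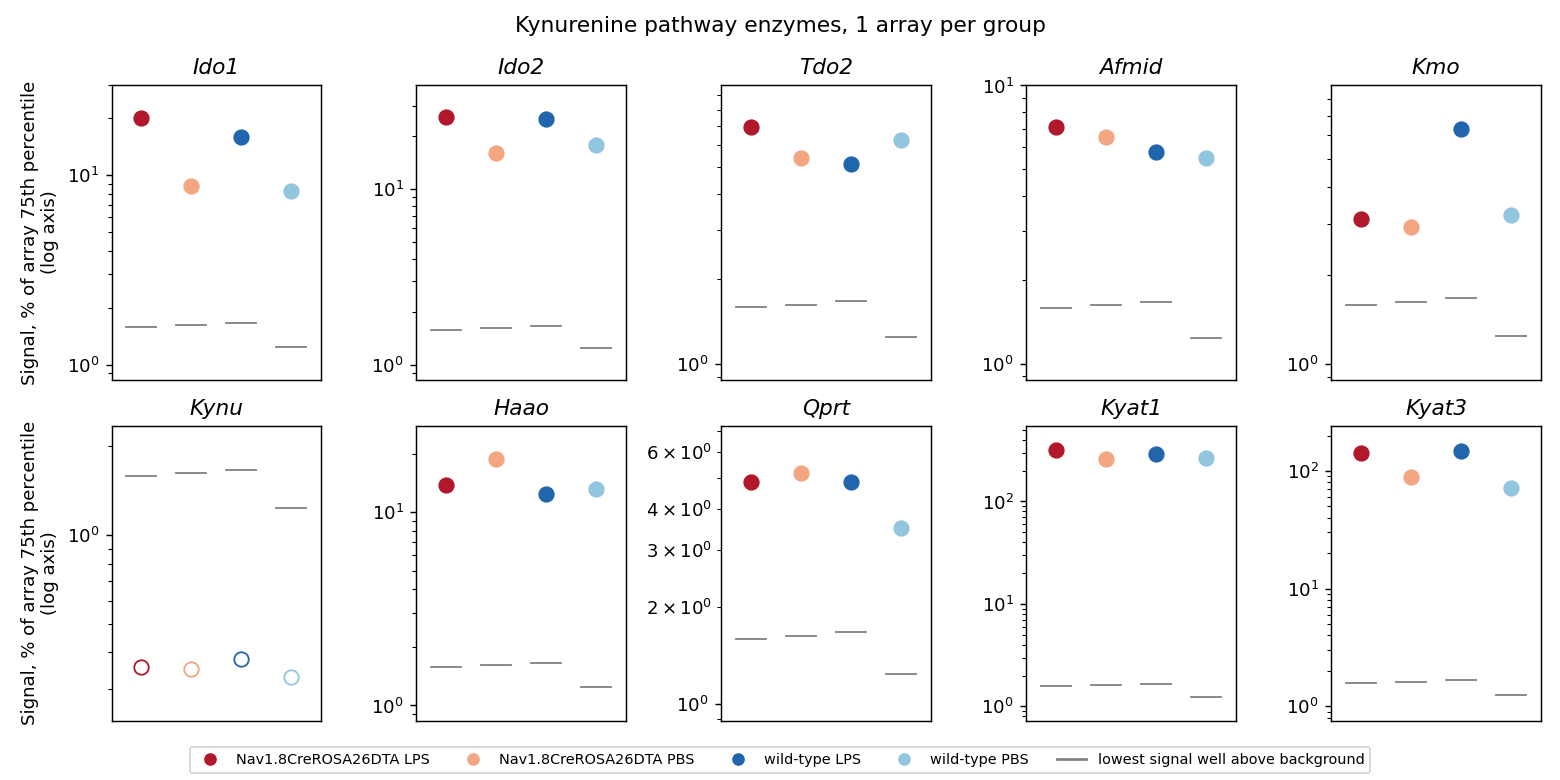
Signal of each kynurenine pathway gene on each array, as a percent of the array's 75th percentile (log axis, a scale of its own for each gene), with 1 point per array. Open points are not well above background, and grey dashes are the lowest signal well above background on that array. Of the 9 tested enzymes, Ido1, Ido2, Kyat1 and Kyat3 were higher on both LPS arrays than on both PBS arrays, where 21.7% of all genes were. Kynu lay under the grey dashes on all 4 arrays.

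Ido1 had a relative signal of 20.1% with LPS and 8.83% with PBS in Nav1.8CreROSA26DTA brain, and of 15.9% with LPS and 8.22% with PBS in wild-type brain. Both LPS arrays were high, both PBS arrays were low, and the 2 sets did not overlap. The difference was 1.07 ± 0.20 on the log2 scale (adjusted p = 0.00927). It was 2.27-fold within Nav1.8CreROSA26DTA brain and 1.94-fold within wild-type brain, each from 1 pair of arrays. With an array left out, the other 3 allow a model with the agent alone, so those fits dropped the genotype term as well. The Ido1 difference was then 0.90 to 1.24, close to that over 4 arrays, while the call ended in all 4 such fits (adjusted p from 0.0722 to 0.243). The call also ended without the intensity trend in the variance model (adjusted p = 0.0541). The value was 0.55 under another background correction, normexp on the median signal, and still passed (adjusted p = 0.0187).

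The authors' deposited value table gives another Ido1 value for 1 of the arrays. For the 59305 spots that are not controls, each of its 4 columns equals the scanner's processed signal times 1 factor for that array, within 0.1%, with a single exception among all spots and arrays. The exception is the only Ido1 probe on the Nav1.8CreROSA26DTA LPS array, where the table holds 499.3 and the factor times the scanner signal gives 229.3. The difference is 270.0000, so that both values have the same digits after the point. In the scanner file, this spot's processed signal divided by its background-subtracted signal was 0.873, and the same ratio over 77 spots around it had a median of 0.874 and a range of 0.868 to 0.881. On the table's values, Ido1 was 5.26-fold higher with LPS in Nav1.8CreROSA26DTA brain and 2.01-fold higher in wild-type brain, and with LPS it was 2.71-fold higher in Nav1.8CreROSA26DTA than in wild-type brain. The averaged LPS difference of Ido1 was 1.70 ± 0.31 on the table's values (adjusted p = 0.0142) and 1.14 ± 0.19 with this spot taken from the scanner file (adjusted p = 0.0107). The scanner values scaled to the 75th percentile give 2.27-fold, 1.94-fold and 1.26-fold for the same 3 comparisons. The labels and file headers state no reason for the difference, and values given here come from the scanner files unless the deposited table is named.

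**Figure D2:**
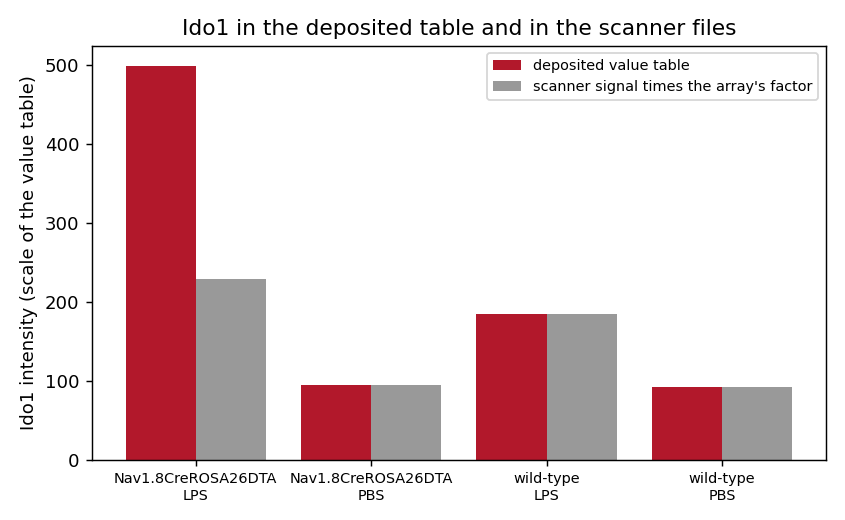
Ido1 on each of the 4 arrays in the authors' deposited value table and as the scanner's processed signal times the factor of that array (linear intensity, axis from 0). The bars are equal on 3 arrays, and on the Nav1.8CreROSA26DTA LPS array they stand at 499.3 in the table and 229.3 from the scanner file.

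Ido2, the paralog of Ido1 that lies next to it in the genome, had 25.98% with LPS and 16.0% with PBS in Nav1.8CreROSA26DTA brain, and 25.1% with LPS and 17.9% with PBS in wild-type brain. Both LPS arrays were above both PBS arrays. The difference of 0.59 ± 0.17 missed the threshold (adjusted p = 0.0582). It passed with every gene in the model regardless of signal (adjusted p = 0.0352) and with the deposited value table (adjusted p = 0.0493). Other settings took it farther from the threshold: no intensity trend (adjusted p = 0.139), normexp (0.32, adjusted p = 0.156) and the mean over its probes (0.46, adjusted p = 0.332). A second Ido2 probe was dim, at 1.87% with LPS and 1.13% with PBS in Nav1.8CreROSA26DTA brain and 1.82% with LPS and 1.93% with PBS in wild-type brain. It was well above background on the Nav1.8CreROSA26DTA LPS array and the wild-type PBS array alone, and gave a difference of 0.32 ± 0.44 (adjusted p = 0.777).

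Tdo2, the glucocorticoid-inducible enzyme of the same step, had 6.92% with LPS and 5.37% with PBS in Nav1.8CreROSA26DTA brain, and 5.14% with LPS and 6.22% with PBS in wild-type brain. The LPS and PBS arrays overlapped, and the averaged difference was 0.05 ± 0.28 (adjusted p = 0.949), with no direction that held across the scalings tried. Afmid, the formamidase of the second step, had 7.08% with LPS and 6.55% with PBS in Nav1.8CreROSA26DTA brain, and 5.78% with LPS and 5.49% with PBS in wild-type brain. Its LPS and PBS arrays also overlapped (0.09 ± 0.25, adjusted p = 0.872). A second Afmid probe read 4.14% and 3.34% with LPS and PBS in Nav1.8CreROSA26DTA brain, and 2.42% and 2.36% with LPS and PBS in wild-type brain, and did not pass either (0.18 ± 0.34, adjusted p = 0.848).

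Of the kynurenic acid branch, Kyat3 had 143% with LPS and 89.7% with PBS in Nav1.8CreROSA26DTA brain, and 147% with LPS and 71.9% with PBS in wild-type brain. Both LPS arrays were high and did not overlap the PBS arrays. The difference was 0.85 ± 0.12 (adjusted p = 0.00242), from 1.59-fold within Nav1.8CreROSA26DTA brain and 2.04-fold within wild-type brain. In the fits on 3 arrays, without the genotype term, the Kyat3 difference was 1.01 without the Nav1.8CreROSA26DTA PBS array, and the call held (adjusted p = 0.0165). It was 0.87 without the Nav1.8CreROSA26DTA LPS array (adjusted p = 0.0699), 0.83 without the wild-type LPS array (adjusted p = 0.0673) and 0.69 without the wild-type PBS array (adjusted p = 0.0558), which ended the call. It also ended without the intensity trend (adjusted p = 0.102). Kyat1, the other aminotransferase, had 319% with LPS and 259% with PBS in Nav1.8CreROSA26DTA brain, and 291% with LPS and 268% with PBS in wild-type brain. Its LPS arrays were both above its PBS arrays, by 0.21 ± 0.10, which did not pass (adjusted p = 0.246).

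Of the quinolinic acid branch, Kmo, the hydroxylase at its entry, had 3.11% with LPS and 2.92% with PBS in Nav1.8CreROSA26DTA brain, and 6.32% with LPS and 3.20% with PBS in wild-type brain. The wild-type LPS array stood above the other 3. LPS over PBS was 1.06-fold within Nav1.8CreROSA26DTA brain and 1.97-fold within wild-type brain, and the average of 0.54 ± 0.35 did not pass (adjusted p = 0.41). On 3 arrays the Kmo difference ran from 0.02 without the wild-type LPS array to 1.05 without the Nav1.8CreROSA26DTA LPS array. A second Kmo probe was not well above background on any array. Kynu, which splits hydroxykynurenine, was not well above background on any array with either of its 2 probes, so it has no fold change.

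Haao, the dioxygenase that forms the precursor of quinolinic acid, had 13.8% with LPS and 18.8% with PBS in Nav1.8CreROSA26DTA brain, and 12.4% with LPS and 13.3% with PBS in wild-type brain. It was the only one of the 9 with an averaged difference below 0, at -0.27 ± 0.19, and did not pass (adjusted p = 0.46). On 3 arrays the Haao difference ran from -0.52 without the wild-type PBS array to -0.02 without the Nav1.8CreROSA26DTA PBS array. Qprt, which consumes quinolinic acid, had 4.85% with LPS and 5.19% with PBS in Nav1.8CreROSA26DTA brain, and 4.87% with LPS and 3.50% with PBS in wild-type brain. The wild-type PBS array was the low one, the other 3 were close to each other, and the average of 0.19 ± 0.30 did not pass (adjusted p = 0.763).

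**Figure D3:**
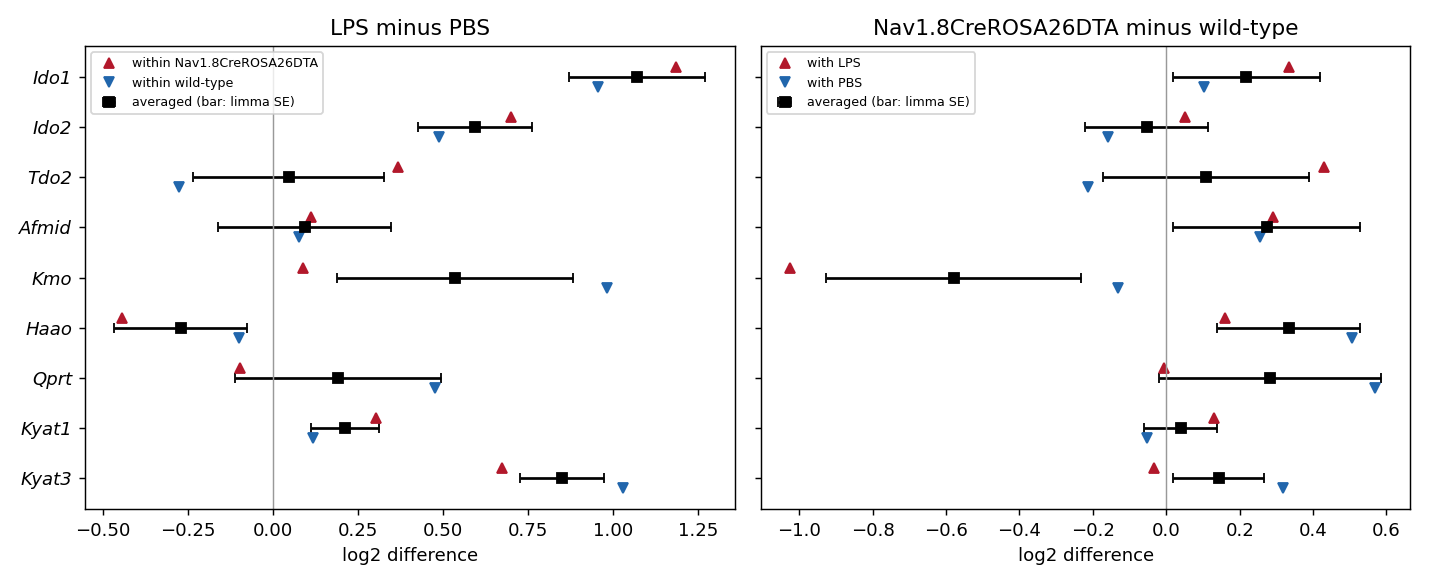
Log2 differences of the 9 tested enzymes, for LPS minus PBS on the left and Nav1.8CreROSA26DTA minus wild-type on the right. Black squares are the averages with limma's standard error, and triangles are the values of single pairs of arrays. With LPS, Ido1 (1.07) and Kyat3 (0.85) stood farthest to the right, and between genotypes Kmo (-0.58) stood farthest from 0.

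Nav1.8CreROSA26DTA against wild-type, averaged over the injections, asked whether the brain levels of these enzymes differed when the nociceptor lineage was missing. Of the 9 enzymes, 0 passed in limma, where 0.409% of all genes did. At an unadjusted p below 0.05 it was also 0 of the 9, where 1146 of 17131 genes were higher and 600 lower. The estimates ran from -0.58 ± 0.35 for Kmo (adjusted p = 0.649) to 0.33 ± 0.19 for Haao (adjusted p = 0.635). Ido1 differed by 0.22 ± 0.20 (adjusted p = 0.795) and Kyat3 by 0.14 ± 0.12 (adjusted p = 0.781). Both Nav1.8CreROSA26DTA arrays lay above both wild-type arrays for 2 of the 9, Afmid and Haao, where 16.1% of all genes did so. Both lay below for 1 of the 9, Kmo, where 12.8% of all genes did so. A missed threshold does not show equal levels.

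In single pairs of arrays, which have no test, a 2-fold difference was used as a description. With LPS over PBS in Nav1.8CreROSA26DTA brain, 1 of the 9 was at least 2-fold higher (Ido1), where 3.1% of genes well above background on both arrays were. Under normexp it was 0 of the 9, with Ido1 at 0.51 on the log2 scale. With LPS over PBS in wild-type brain it was also 1 of the 9 (Kyat3, 2.04-fold), where 3.41% of genes were. Ido1, Kmo and Kyat3 all lay close to 2-fold here, so this count was 0 with median scaling or normexp and 3 with cyclic loess or the deposited table. Between the genotypes with LPS, 1 of the 9 was at least 2-fold apart, where 1.2% of genes were: Kmo, at 0.491 times the wild-type level (-1.02 on the log2 scale). Under normexp the Kmo difference was -0.42 and the count 0, while with the deposited table Ido1 made it 2. Between the genotypes with PBS it was 0 of the 9, where 1.62% of genes were. The difference of the LPS responses, Nav1.8CreROSA26DTA minus wild-type, was -0.89 for Kmo, 0.64 for Tdo2 and -0.57 for Qprt on the log2 scale (under normexp -0.56, -0.06 and -0.39), and lay between -0.35 and 0.23 for the other 6. It was not tested, since it is the only residual of the model.

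**Figure D4:**
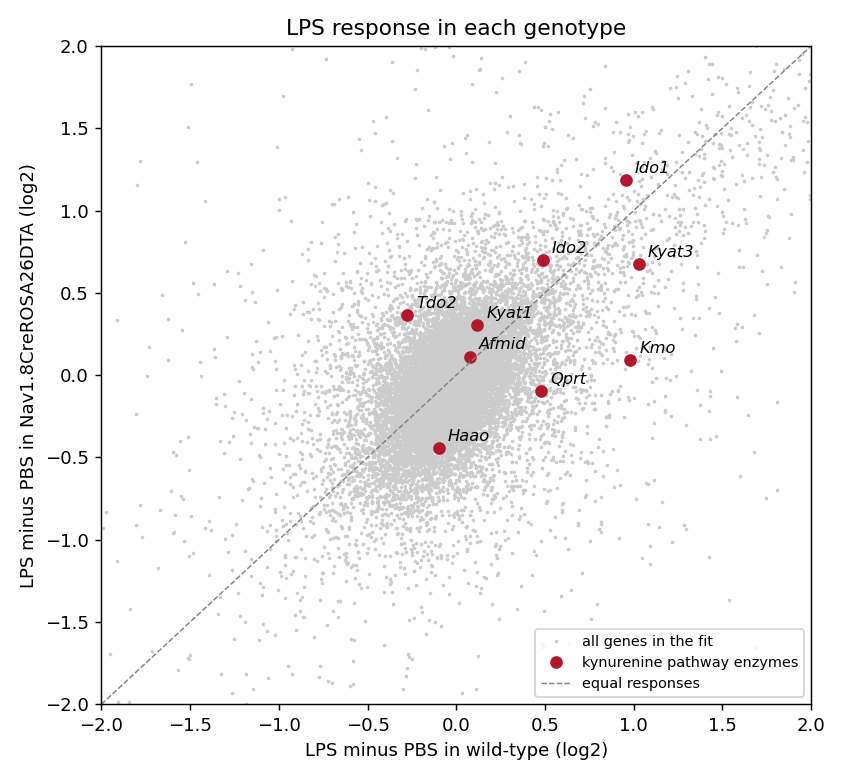
LPS minus PBS (log2) in Nav1.8CreROSA26DTA brain against the same difference in wild-type brain, for the 9 enzymes (red) and all genes in the model (grey). Genes beyond 2 on either axis are not drawn. Ido1, Ido2, Afmid, Kmo, Kyat1 and Kyat3 were above 0 on both axes, and Kmo lay at 0.09 in Nav1.8CreROSA26DTA and 0.98 in wild-type brain.

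Kyat3, the called enzyme of the kynurenic acid branch, was looked at with its genomic surroundings, a step added after its value was seen. In RefSeq gene order it lies between Gbp2, a guanylate-binding protein induced by interferon, and Gtf2b, a general transcription factor. Gbp2 rose by 5.18 ± 0.15 with LPS (adjusted p = 1.04e-07) and Gtf2b by 0.37 ± 0.10 (adjusted p = 0.0499). Gbp3, on the side of Gbp2, rose by 3.48 ± 0.16 (adjusted p = 2.04e-06), while Gbp2b between them had 2.85 ± 0.90 and did not pass (adjusted p = 0.0855). The 3 nearest tested genes on each side of all 10 enzymes gave 54 genes that are not enzymes of the pathway. Of these, 8 rose, 1 fell and 45 did not pass, where 5.62% of all genes rose and 4.54% fell. Gbp2, Gbp3 and Gtf2b were among the 8.

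The promoter of Kyat3 is shown because it belongs to a called gene. RefSeq windows of 250 bases before to 50 bases after the start site, on build GRCm38.p6, were available for 7 of the 10 enzymes, and Ido1, Ido2 and Kynu were not among them. Capitals mark the core bound by the aryl hydrocarbon receptor in Kyat3 (GCGTG, here as its reverse complement CACGC). The Kyat3 window is chr3:142700798-142701097 on the plus strand.
Kyat3: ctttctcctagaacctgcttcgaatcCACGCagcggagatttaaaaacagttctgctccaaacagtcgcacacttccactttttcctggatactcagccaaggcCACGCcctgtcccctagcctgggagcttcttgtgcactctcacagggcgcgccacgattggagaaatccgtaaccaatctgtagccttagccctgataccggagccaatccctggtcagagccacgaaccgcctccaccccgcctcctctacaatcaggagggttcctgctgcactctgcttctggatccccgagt
Both strands were searched, and matches of different motifs could overlap. GCGTG stood in 4 of the 7 windows (Haao, Kyat1, Kyat3 and Tdo2) and in 32.4% of 32851 promoters. The interferon-stimulated response element stood in 0 of the 7 and in 3.44% of promoters, and the glucocorticoid response element in 0 of the 7 and in 0.475%. A match describes letters and no binding was measured.

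Genes that supply or compete for tryptophan were measured beside the pathway. For comparison, 5.62% of all genes rose and 4.54% fell with LPS. Of 11 tested genes of tryptophan transport and competing use, 0 rose and 1 fell: Slc7a5, a large neutral amino acid transporter, by -0.39 ± 0.10 (adjusted p = 0.0397). Slc7a5 had 441% with LPS and 640% with PBS in Nav1.8CreROSA26DTA brain, and 636% with LPS and 758% with PBS in wild-type brain, so the LPS and PBS arrays did not overlap by a narrow margin. Wars, the tryptophan tRNA ligase, had -0.08 ± 0.09 and did not pass (adjusted p = 0.673). Of other kynurenine enzymes, the aminotransferase Got2 did not pass (-0.04 ± 0.09, adjusted p = 0.851), Aadat was well above background on 1 array only, and Acmsd, which diverts the pathway from quinolinic acid, on none.

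Of 10 genes listed under NAD synthesis, which starts from nicotinic acid and nicotinamide as well as from quinolinic acid, 1 rose and 0 fell. The shares over all genes were 5.62% and 4.54%. Naprt, which uses nicotinic acid, rose by 0.62 ± 0.13 (adjusted p = 0.014), whereas Nampt, which recycles nicotinamide, had 0.35 ± 0.12 (adjusted p = 0.102) and Nadsyn1 had 0.11 ± 0.14 (adjusted p = 0.701). Of 10 NAD-consuming enzymes, 6 rose and 0 fell. The ADP-ribosyltransferase Parp14 had 72.2% with LPS and 16.3% with PBS in Nav1.8CreROSA26DTA brain, and 77.4% with LPS and 11.9% with PBS in wild-type brain, a rise of 2.42 ± 0.17 (adjusted p = 2.51e-05). Bst1, a NAD glycohydrolase, rose by 2.11 ± 0.32 (adjusted p = 0.00297), with the wild-type PBS array not well above background. Parp9 rose by 1.71 ± 0.20 (adjusted p = 0.000732) and Parp10 by 1.66 ± 0.15 (adjusted p = 9.96e-05). The 4 that did not pass were Sarm1 (-0.09 ± 0.11), Sirt1 (-0.18 ± 0.12), Parp1 (0.18 ± 0.11) and Parp2 (0.42 ± 0.16). The list's median difference was 1.02, against -0.03 over all genes. The list was chosen with earlier results of these data known, so its median is a description.

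Among 8 tested genes of receptors for kynurenine metabolites, 0 rose and 2 fell, where 5.62% of all genes rose and 4.54% fell. Grin2b, an NMDA receptor subunit, had 248% with LPS and 457% with PBS in Nav1.8CreROSA26DTA brain, and 250% with LPS and 458% with PBS in wild-type brain, a difference of -0.88 ± 0.09 (adjusted p = 0.000355). The LPS arrays were close to each other and so were the PBS arrays. Grin2c, another subunit, fell by 0.47 on the log2 scale (adjusted p = 0.0175), and the obligatory subunit Grin1 had -0.06 ± 0.09 (adjusted p = 0.777). Ahr, the aryl hydrocarbon receptor, for which kynurenine is a ligand, had -0.19 ± 0.12 (adjusted p = 0.384), and Gpr35, a receptor for kynurenic acid, was not well above background on any array. Of 4 tested targets of the aryl hydrocarbon receptor 2 rose, Cyp1b1 by 1.86 ± 0.20 (adjusted p = 0.000408) and Tiparp by 0.55 ± 0.13 (adjusted p = 0.0232), while Cyp1a1 and Cyp1a2 were not well above background on any array.

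Of 13 tested genes that lead to Ido1 induction, 4 rose and 0 fell, where 5.62% of all genes rose and 4.54% fell. Irf1, an interferon-induced transcription factor, had 193% with LPS and 91.9% with PBS in Nav1.8CreROSA26DTA brain, and 237% with LPS and 88.3% with PBS in wild-type brain. Its LPS arrays were both above its PBS arrays. Irf1 rose by 1.25 ± 0.12 (adjusted p = 0.000187), Myd88, the adaptor of LPS signalling, by 0.94 ± 0.12 (adjusted p = 0.00141) and Irf8 by 0.75 ± 0.12 (adjusted p = 0.00388). Ifng itself, the inducer of Ido1, was not well above background on any array. Of 6 genes of glucocorticoid signalling, 3 rose, namely Fkbp5 by 1.71 ± 0.09 (adjusted p = 4.81e-06), Sgk1 by 0.77 ± 0.09 (adjusted p = 0.000603) and Tsc22d3 by 0.51 ± 0.09 (adjusted p = 0.00617). The receptor Nr3c1 fell by 0.40 (adjusted p = 0.0263). In none of these 8 lists did a gene pass between Nav1.8CreROSA26DTA and wild-type brain, and the lists were chosen with earlier results of these data known.

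**Figure D5:**
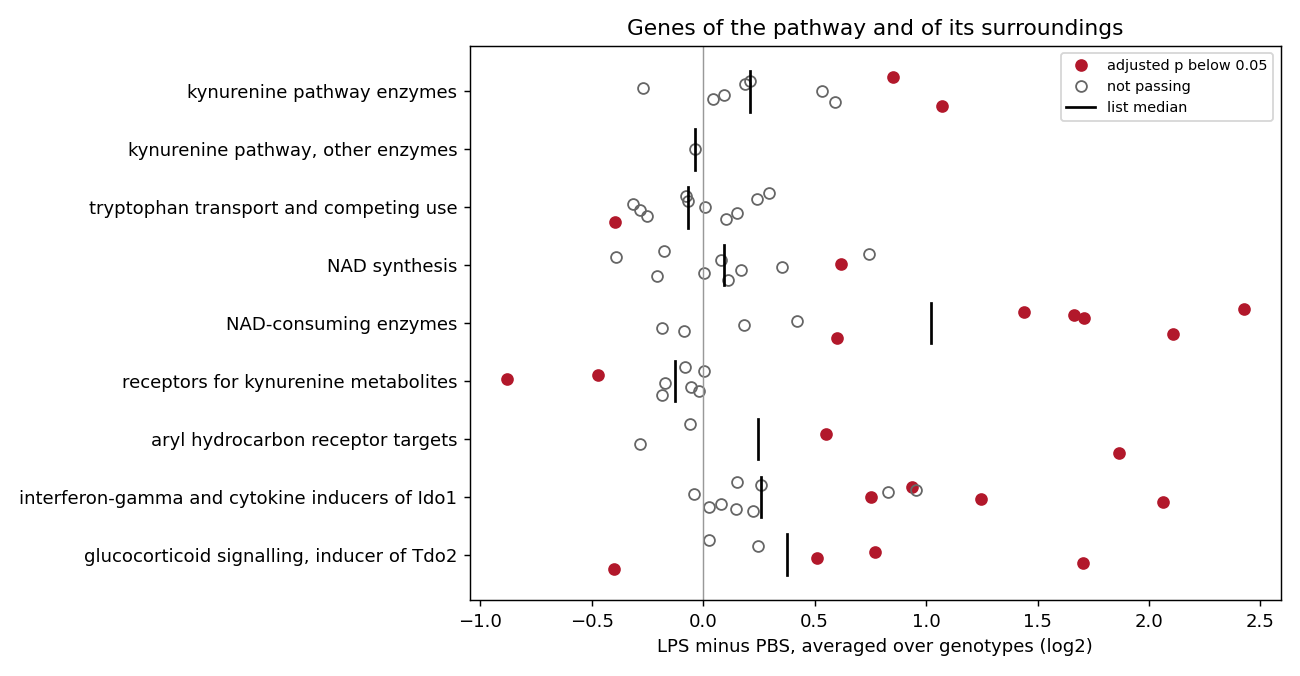
LPS minus PBS, averaged over the genotypes (log2), for each tested gene of the kynurenine pathway and of 8 lists around it, with 1 point per gene. Red points have an adjusted p below 0.05 and black lines are list medians. Ido1 and Kyat3 were the red points among the enzymes, and the NAD-consuming enzymes had the highest median (1.02), with 6 of 10 points red.

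Markers of cell types moved with LPS too, and their part in the enzyme values was not tested. Among all genes, 5.62% rose and 4.54% fell with LPS, and 0.409% passed between the genotypes. Of 8 tested markers of monocytes, macrophages and neutrophils, 5 rose and 0 fell, with summed relative signals of 6506% and 6451% on the Nav1.8CreROSA26DTA and wild-type LPS arrays against 4806% and 4654% on the corresponding PBS arrays. Itgam and Ly6c2 made up most of these sums. The neutrophil genes S100a8 and S100a9 differed between the PBS arrays, with 69.2% and 229% in Nav1.8CreROSA26DTA brain against 3.54% and 10.9% in wild-type brain. Ly6g, another neutrophil gene of the list, did not follow, with 7.65% in Nav1.8CreROSA26DTA and 7.11% in wild-type brain after PBS. The monocyte receptor Ccr2 was well above background on the Nav1.8CreROSA26DTA PBS array alone. Of 8 microglial markers, 0 rose and 5 fell, with sums of 3112% and 3131% on the LPS arrays against 4609% and 3757% on the PBS arrays. Of 7 astrocyte markers, 2 rose and 1 fell. Between the genotypes 1 of 5 oligodendrocyte markers was higher, Cnp by 0.78 ± 0.12 (adjusted p = 0.0417). Red-cell genes summed to 17348% and 33440% in Nav1.8CreROSA26DTA brain with LPS and PBS, against 10845% and 4536% in wild-type brain with LPS and PBS.

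The genes with the array pattern most like that of Ido1 were Emilin2, Nfam1 and Stxbp3, at Euclidean distances of 0.037, 0.102 and 0.112 over the 4 arrays, among 16242 genes compared. Those most like Kyat3 were Ripk4, 9530082P21Rik and Elf4, at 0.039, 0.041 and 0.052. With 4 values a gene, close patterns are common, and these names are a description.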

How the data were processed

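Whole-brain RNA was isolated with TRIzol and Cy3-labelled, per the labels' protocols. The deposited intensity of each spot, the processed signal, is background-subtracted and detrended within its array, per the file headers. They name Agilent Feature Extraction 12.0.3.1 and a design grid on mm9, whereas the submitters' processing notes name version 11.0.1.1. Other deposited columns of 0 or 1 flag spots as well above background, saturated or outlying. The authors' deposited value table holds intensities on a linear scale, 1 factor per array relates it to the processed signal, with the origin of the factors unstated, and it served as an alternative.

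Outlier spots were left out, processed signals were divided by the 75th percentile of their array and log2-transformed, and spots of a probe were averaged. Of 56605 probes, 33767 had 1 symbol through RefSeq names (GRCm38.p6, used for names, gene order and promoters) and 22838 had none. A gene took the probe well above background on most arrays, then the brightest. Genes well above background on at least 2 arrays entered 1 model with genotype and agent (limma 3.58.1, R 4.3.3; lmFit, eBayes with an intensity trend, two-sided, Benjamini-Hochberg threshold 0.05). It leaves 1 residual degree of freedom, pooled with 7.99 from other genes of like intensity. Spot-to-spot SD was 0.0418 to 0.0456 (log2), and precision is limited by the number of arrays.

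Named were all 10 enzymes, fixed genes of each list, up to 4 passing genes per list by size, and the 3 nearest patterns of each called enzyme. Members and lists were chosen with earlier results of these data known. The files hold no mean signal, so normexp used the median signal (offset 50). One gene of a list and its motif are not reported here. The alternatives were other scalings, background correction, source of values, filters, probe choice, variance model and leaving out each array. The fits on 3 arrays had agent as their only term, since with genotype no residual degree of freedom is left. The normexp setting and the table with its Ido1 spot replaced were chosen after seeing the data.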

Additional observations from a re-analysis of the deposited data

Results flagged for a closer look

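The authors' deposited value of Ido1 on the Nav1.8CreROSA26DTA LPS array was 2.18 times the value that the scanner signal of the same spot gives, while every other spot that is not a control, on each of the 4 arrays, matched within 0.1%. The table's value was 499.3, the scanner's 229.3 on the same scale, and their difference 270.0000. With the table as deposited, LPS minus PBS for Ido1 in Nav1.8CreROSA26DTA brain was 2.40 on the log2 scale, and 1.27 with this spot taken from the scanner file. The difference of the LPS responses between the genotypes was 1.39 with the table and 0.27 with the spot replaced.

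Some enzymes moved in opposite directions in the pairs of arrays, and these differences were not tested. Tdo2 was higher with LPS in Nav1.8CreROSA26DTA brain (0.37) and lower in wild-type brain (-0.28), and it was higher in Nav1.8CreROSA26DTA than in wild-type brain with LPS (0.43) and lower with PBS (-0.21), a difference of 0.64 either way. Under normexp these opposite signs were gone, with LPS minus PBS at -0.13 in Nav1.8CreROSA26DTA and -0.08 in wild-type brain, genotype differences of 0.06 with LPS and 0.11 with PBS, and a difference of -0.06. Qprt went the other way, with -0.10 in Nav1.8CreROSA26DTA and 0.48 in wild-type brain after LPS, and with genotype differences of -0.01 with LPS and 0.57 with PBS, a difference of -0.57. The genotype difference also had opposite signs with LPS and with PBS for Ido2 (0.05 and -0.16, a difference of 0.21), Kyat1 (0.13 and -0.05, a difference of 0.18) and Kyat3 (-0.03 and 0.32, a difference of -0.35).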

How the results depend on the processing

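No paired analysis was possible because the labels carry no replicate numbers and each group has 1 array. The fit rests on 1 residual degree of freedom, so calls depend on how the spread is shared between genes. Of the enzymes, 2 rose with LPS, against 0 without the intensity trend and 0 to 1 with an array left out, where the genotype term was dropped too, so that fewer arrays and the smaller model cannot be told apart. Between the genotypes 0 enzymes passed under each alternative that has a test. Counts of all genes, higher and lower with LPS, were 963 and 777. The lower count became 1292 with median scaling, 463 with cyclic loess, 435 with the deposited table and 437 with its Ido1 spot replaced. The counts were 1582 and 1567 with no filter on dim probes, 382 and 48 without the trend, and 370 to 514 and 70 to 187 with an array left out. Between the genotypes 52 genes were higher and 18 lower. The counts were 166 and 31 with median scaling, 21 and 8 with cyclic loess, 179 and 62 with quantile normalization, 258 and 124 with normexp, 20 and 8 with the deposited table with or without its Ido1 spot replaced, 654 and 304 with no filter, 0 and 0 without the trend, and 23 and 5 with the mean over probes. LPS minus PBS turned below 0 for Tdo2 with median scaling (-0.0098), quantile normalization (-0.0026) and normexp (-0.10), and under normexp for Afmid (-0.012), Kmo (-0.029) and Qprt (-0.045). With an array left out it ran from -0.17 to 0.26 for Tdo2, from -0.052 to 0.24 for Afmid, from -0.095 to 0.47 for Qprt, from 0.02 to 1.05 for Kmo and from -0.52 to -0.02 for Haao. None of these 5 enzymes passed in any of these settings. Ido1 and Kyat3 stayed above 0 under all 15 alternatives, at 0.55 to 1.70 and 0.69 to 1.01. The cause of these changes was not tested. Dim signals limit Kynu, Kmo, Qprt, Tdo2, Afmid and the second probes of Ido2 and Afmid.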
